A study of Bos taurus with 13 samples.

Results

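Bovine mesenchymal stem cells held at 40.5 °C for 3 days were compared with the same kind of cells held at 37 °C for 3 days. These 5 of the 13 libraries of the series were chosen by their titles: 3 cultures of the heated group (LongHS) and 2 of its control (LongNT). The cells were primary umbilical cord cultures of early passage in low-glucose medium with fetal bovine serum, no genetic change is stated for any group, and heating began a day after plating. The other libraries came from cells kept for 6 h at 37 °C (ShortNT, n = 3) or at 40.5 °C (ShortHS, n = 3) and from cells heated for 6 h and then returned to 37 °C for 66 h (ShortHS_Recovery, n = 2). They entered the estimate of the spread and are given where they place the 3-day result. Nothing in the labels says whether the cultures of a group came from separate animals, so the p-values measure the spread between these cultures, which may be technical.

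Mesenchymal stem cells are adherent stromal cells that can form bone, cartilage and fat and that release factors acting on neighbouring cells. Heat unfolds proteins, and cells respond through heat shock transcription factors, which induce chaperones, while much other transcription and the cell cycle slow down. Acute heat induces this programme quickly and it fades when the heat ends, whereas heat that lasts for days can leave cells in arrest or with another secretory state. The deposited table gives genes by Ensembl identifier and does not pair them with names, and the RefSeq table used here held no Ensembl identifiers, so 0 identifiers matched. Chaperones, cell-cycle genes, stromal markers and the markers of other cell types could therefore not be looked up, and the labelled cell type was not checked against them. Genes are described below by what they did, and 4 of them by identifier.

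Continued heat changed a large part of the transcriptome. Of the 13262 genes tested, those with a normalised value of at least 10 in at least 2 of the 5 libraries, 2761 were higher and 2750 lower in the heated cells (limma, adjusted p under 0.05). Together these 5511 genes were 41.6% of those tested. The median change was 0.57 on the log2 scale among the genes that rose and -0.67 among those that fell. Over all genes tested the median log2 difference was -0.000754, as the authors' scaling set the libraries to a common centre. The values are relative to the other transcripts of a library, so a change in RNA per cell would not be seen, and fewer cells of a kind cannot be told apart from less of a transcript in each cell.

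The control has no replicate 3, so the comparison was repeated with replicate 3 of the heated group left out. Then 4810 genes passed (36.3% of those tested), 2371 higher (17.9%) and 2439 lower (18.4%). Of the 5511 genes, 4529 (82.2%) passed again, each with the same sign, while 982 were called only with that library and 281 only without it. Each control weighs more in the comparison than a heated library, as its group is the smaller. The count fell further when a control was left out. With replicate 1 of the 3-day control left out it was 3369, and a lone remaining control was then assumed to vary like the other groups.

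Deep differences from the 3-day control were mostly lower values. Among the called genes, 519 rose and 803 fell by at least 1 on the log2 scale, which is 9.97% of the genes tested in either direction. At a log2 change of at least 2 there were 85 rises and 235 falls, and at 3 or more there were 12 rises and 87 falls. Without heat replicate 3 the numbers were 437 and 718 at 1, 77 and 198 at 2, and 15 and 79 at 3. The excess of deep falls was thus present with and without that library, but its size depended on the processing. Rises were 39.3% of the changes of at least 1 as fitted and 47.1% with quantile normalization. Their share was also higher than as fitted when replicate 2 of the 3-day control was left out. The excess also depended on the reference. Relative to the 6 h control, 1015 tested genes were higher by at least 1 and 971 lower in the 3-day heat group. In the 3-day control itself, 819 were higher and 192 lower than in the 6 h control. These are differences of mean log2 levels with no call required, and the filter used only the 3-day heat and control libraries. At the far end, 30 of the 13262 tested genes had a value of at least 10 in both controls and at most 3 reads in each heated library. The opposite pattern was seen in 6 genes. The filter admitted all of these only through the group where they were high, so the counts are given as a description. At 3 or fewer reads a level is near the limit of detection, and the size of such a fold is uncertain.

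The balance of rises and falls differed between ranges of mean abundance. The mean covers 3 heated and 2 control libraries, so it depends partly on the change itself. For the same pair of levels, a fall gives a lower mean than a rise. How far this shaped the numbers below was not tested. Among the 1379 genes with a mean value under 30 over the 5 libraries, 115 rose and 243 fell. Among the 4001 genes between 300 and 1000, 956 rose and 806 fell, and between 1000 and 3000 the numbers were 757 and 679 of 2953 genes. Between 3000 and 10000 the falls were again more frequent, with 217 rises and 279 falls among 991 genes. The called changes were smaller, and the errors too, in the middle and upper range of abundance. The median absolute log2 change of called genes was 1.81 under 30, where the median standard error was 0.44, and 0.46 between 1000 and 3000, where it was 0.10.

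**Figure D1:**
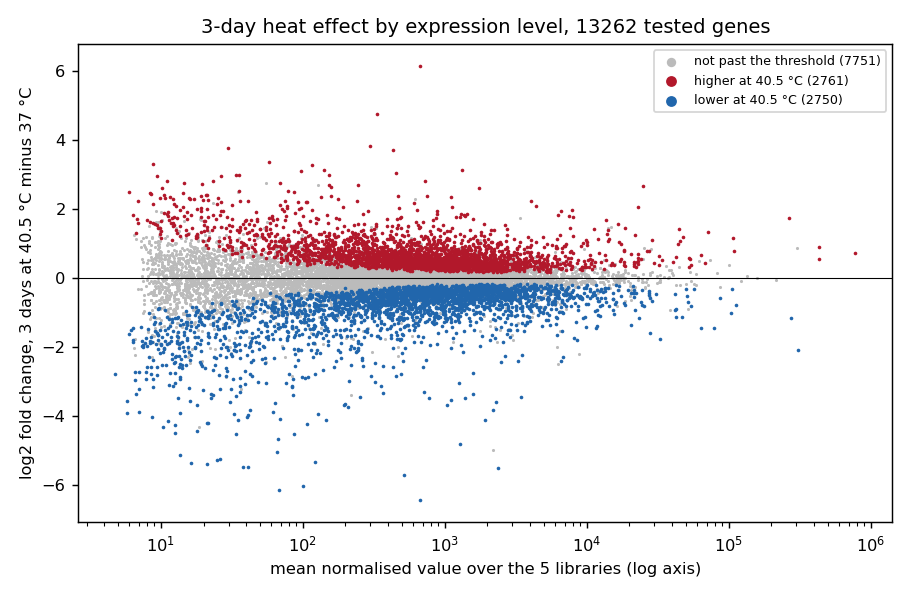
Each point is 1 of the 13262 tested genes, with its mean normalised value over the 5 libraries on a log axis and its log2 fold change, 3 days at 40.5 °C minus 3 days at 37 °C; coloured points passed an adjusted p of 0.05 in limma. Rises and falls were near equal in number, 2761 and 2750, but the points beyond 3 on the log2 scale lie mostly below the axis, 87 against 12.

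The heated libraries lay apart from the controls by more than replicates lay from each other. Over the tested genes the median absolute log2 difference between a heated and a control library was from 0.34 to 0.43. It was 0.16 between the 2 controls, 0.08 between heat replicates 1 and 2, and 0.18 and 0.19 between heat replicate 3 and the other heated libraries. Heat replicate 3 therefore stood apart from its group, though by less than the group stood from the controls. Its deviations from the group mean, taken across genes, resembled those of replicate 3 of the 6 h control (r = 0.48) and of the 6 h heat group (r = 0.53). What sets these libraries apart is not stated in the labels and was not tested. In 8752 genes, 66% of those tested, the heated and control values did not overlap, 4372 with heat above (33%) and 4380 with heat below (33%). Of the 5511 called genes, 5502 were among them.

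Heat replicate 3 was set beside genes called without it, although it had entered the filter on low values. Of the 4810 genes called from heat replicates 1 and 2, replicate 3 lay on the same side of the control mean in 4735 (98.4%). It lay beyond both controls on that side in 4664 (97.0%), against 77% of all tested genes. The median distance of replicate 3 from the control mean was 0.62 on the log2 scale for the genes called higher, where replicates 1 and 2 had 0.57 and 0.59. For the genes called lower it was -0.67, where replicates 1 and 2 had -0.69 and -0.70. All of these distances use the same 2 controls and are given as a description. For 1155 genes with a log2 change of at least 1 without replicate 3, that library lay beyond both controls in 1124.

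**Figure D2:**
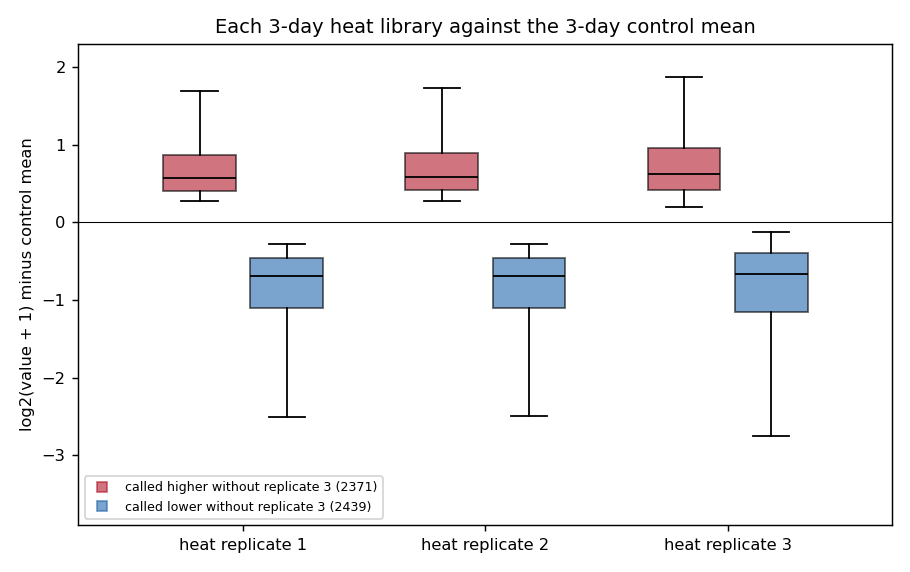
Boxes give, for each 3-day heat library, log2(value + 1) minus the mean of the 2 control libraries, over the 2371 genes called higher (red) and the 2439 called lower (blue) when heat replicate 3 was left out; the line is the median, the box the quartiles, and the whiskers the 5th and 95th percentiles. The medians of replicate 3, 0.62 and -0.67, are close to those of replicates 1 and 2, from which the genes were chosen.

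The 4 identifiers that follow are those with the largest rises and falls that were called with and without heat replicate 3, with groups that did not overlap and a mean of at least 50 in the higher group. By that rule 2172 rises and 2090 falls qualified. These genes were selected for their size of change, so their values describe the extremes of the response.

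ENSBTAG00000020060 had the largest rise. Its normalised values were 948, 634 and 1756 in heat replicates 1 to 3 and 11.3 and 15.4 in the controls. Every heated library was far above both controls, and replicate 3 was the highest. The rise amounted to 6.17 on the log2 scale (SE 0.77, adjusted p 0.000168 in limma), and 5.77 without heat replicate 3 (SE 0.83, limma adjusted p 0.000689). At 6 h this gene had stood at 153, 160 and 1248 at 37 °C and at 830, 1037 and 1496 at 40.5 °C, so replicate 3 was high in each group that has one. In the recovery group it was 7.53 and 16.5, in the range of the 3-day controls. The 3-day heated cells thus held a level like that of the heated cells at 6 h, while both 3-day groups that ended at 37 °C were low. The heat effect was larger at 3 days than at 6 h by 4.37 on the log2 scale (SE 1.04, limma adjusted p 0.0187). That last call was lost without replicate 1 of the 3-day control (difference 4.17, limma adjusted p 0.0817), and over its 24 alternatives the adjusted p ran from 6.61e-05 to that value.

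ENSBTAG00000018252 had the next largest rise, to 515, 389 and 723 in the heated libraries from 20.0 and 16.7 in the controls. The groups were again wide apart, with replicate 3 the highest. This was a log2 rise of 4.77 (SE 0.65, adjusted p 0.00026 in limma) and 4.54 without heat replicate 3 (SE 0.72, limma adjusted p 0.00112). At 6 h its values were 86.7, 80.1 and 570 at 37 °C and 255, 291 and 292 at 40.5 °C. These groups overlapped through replicate 3 of the control, and the 6 h difference did not pass (log2 difference 0.81, SE 0.58, adjusted p 0.318 in limma). The recovery group had 25.6 and 24.8, close to the 3-day controls. The effect at 3 days exceeded that at 6 h by 3.96 (SE 0.87, limma adjusted p 0.0132). Without replicate 1 of the 3-day control this difference was 4.09 and missed the threshold (limma adjusted p 0.0514), and over the 24 alternatives the adjusted p ran from 3.33e-06 to that value.

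ENSBTAG00000027513 had the largest fall. It was at 17.3, 9.99 and 30.6 in the heated libraries and at 1850 and 1431 in the controls, with no overlap. The fitted log2 change was -6.46 (SE 1.55, adjusted p 0.00667 in limma) and -6.84 without heat replicate 3 (SE 1.75, limma adjusted p 0.0126). The recovery libraries, at 1721 and 1464, were as high as the controls. The 6 h libraries of this gene, which enter its error, were far apart. Replicates 1 and 2 stood at 59.6 and 38.4 at 37 °C and replicate 3 at 2192, while at 40.5 °C the values were 21.5, 16.4 and 323. In replicates 1 and 2, then, the 3-day controls were far above the 6 h controls and the 3-day heated cells were not. The difference between the 3-day and the 6 h heat effect was -4.67 (SE 2.07) and missed the threshold as fitted (limma adjusted p 0.154). It passed with the replicate number as a block (-5.85, limma adjusted p 0.00079), without replicate 3 of the 6 h control (-6.50, limma adjusted p 0.0111), with replicates 1 and 2 only (-5.54, limma adjusted p 2.44e-07) and with array quality weights (-5.36, limma adjusted p 0.00126). Over 23 alternatives the adjusted p ran from 2.44e-07 to 0.32, so the call depended on these settings.

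ENSBTAG00000047894 was nearly lost under continued heat. It had 2, 1 and 1 reads in heat replicates 1 to 3, which are normalised values of 1.73, 1.11 and 1.27, against 189 and 134 reads, or 164 and 172, in the controls. The pooled value in the heated libraries was 0.00842 of that in the controls, with a 95% exact interval from 0.00228 to 0.0218 that covers counting error only. The fitted log2 change was -6.16 (SE 0.23, limma adjusted p 1.29e-07), and -6.14 without heat replicate 3. At so few reads this value depends on the pseudocount, and it was -4.76 with a pseudocount of 5. At 6 h the gene was at 167, 167 and 210 at 37 °C and at 67.9, 70.5 and 108 at 40.5 °C, groups that did not overlap and differed by -1.15 (SE 0.20, limma adjusted p 0.00133). The recovery libraries were at 153 and 145. The fall was deeper at 3 days by -5.01 (SE 0.30, limma adjusted p 1.37e-05), a call that held in each of the 24 alternatives, with adjusted p from 4.59e-11 to 0.000289.

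**Figure D3:**
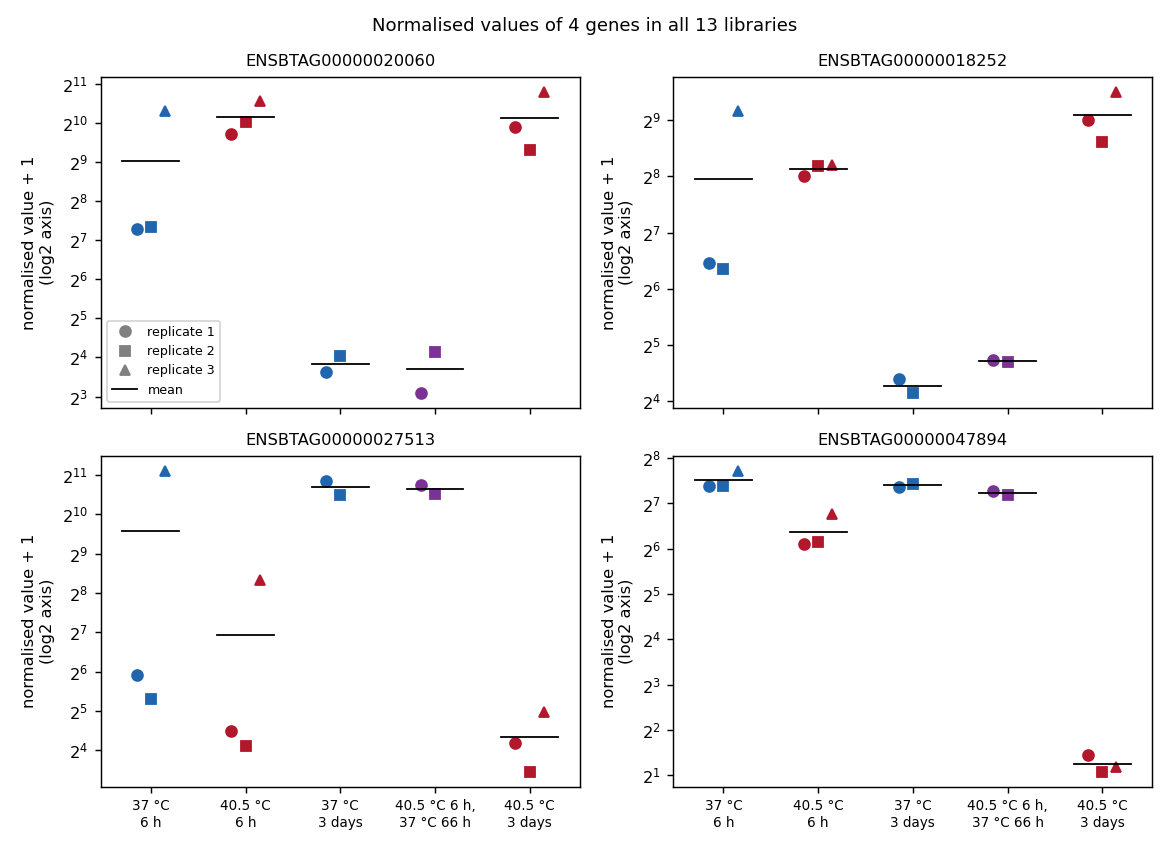
Normalised values plus 1, on a log2 axis, of the 4 identifiers in all 13 libraries by group; symbols give the replicate number and bars the arithmetic mean of a group. In each panel the 3-day heat libraries are separated from the 3-day controls, while the recovery libraries lie near those controls; replicate 3 of the 6 h control is far from replicates 1 and 2 in all panels but that of ENSBTAG00000047894.

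The 12 largest rises and the 12 largest falls under that rule had log2 changes from 2.99 to 6.17 and from -6.46 to -4.83. For the rises, the mean normalised value was between 4.96 and 234 in the controls and between 52.7 and 2052 in the heated cells. For the falls it was between 52.9 and 5700.0 in the controls and between 0.288 and 125 in the heated cells. Of all tested genes, 14.6% passed the interaction test in either direction. In 10 of the 12 rises and 7 of the 12 falls the test passed with the 3-day effect further in its own direction. These genes were chosen for the size of their 3-day change, which favours that outcome. At 6 h the median log2 change of the 12 rises was 0.75, and the values ran from -0.49 to 4.20. Of the 12 falls it was -0.87, from -1.79 to -0.07. In 9 of the rises and 6 of the falls, the 3 heated libraries lay beyond all 10 other libraries of the series, as they did in 10.6% (above) and 9.53% (below) of all tested genes. The 10 include the 2 controls, from which the 12 rises and 12 falls were chosen to lie apart, which favours this outcome.

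The 6 h experiment asked for the immediate response and shares no library with the 3-day one. On the same genes it gave 4285 calls (32.3%), 2008 higher and 2277 lower. Of the 2761 genes higher after 3 days, 1170 (42.4%) were also called higher at 6 h, 105 were called lower and 1486 were not called. Of the 2750 genes lower after 3 days, 1125 (40.9%) were called lower at 6 h, 48 higher, and 1577 were not called. The median 6 h change of the genes that rose by 3 days was 0.27 on the log2 scale, against 0.57 at 3 days, and of those that fell -0.30 against -0.67. A missed call at 6 h does not show a different response, so the difference itself was tested.

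By the interaction test, the heat effect differed between 3 days and 6 h in 1939 genes (14.6%), the 3-day effect being the higher in 1058 and the lower in 881. Of these, 1418 were among the genes changed after 3 days. The 3-day effect lay further in its own direction than the 6 h effect in 640 of 2761 risen and 657 of 2750 fallen genes. Of these, 105 and 48 were called in the opposite direction at 6 h. There the sign changed, and the 3-day change was not necessarily the larger. In 49 risen and 72 fallen genes the 6 h change went further in the same direction. Choosing genes by their 3-day call favours this direction. When genes were chosen by their 6 h call instead, 911 differed. The 6 h effect lay further in its own direction in 761, sign changes included, and the 3-day effect went further that way in 150. Neither tally therefore shows which response was larger. Of genes changed by at least 1, the 3-day effect lay further in its own direction in 167 of 519 rises and 287 of 803 falls. Among these, 6 and 5 were called in the opposite direction at 6 h. The number that differed was sensitive to the libraries used. It was 769 without replicate 1 of the 3-day control, 1251 without replicate 1 of the 6 h heat group, and 3918 with the replicate number as a block.

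**Figure D4:**
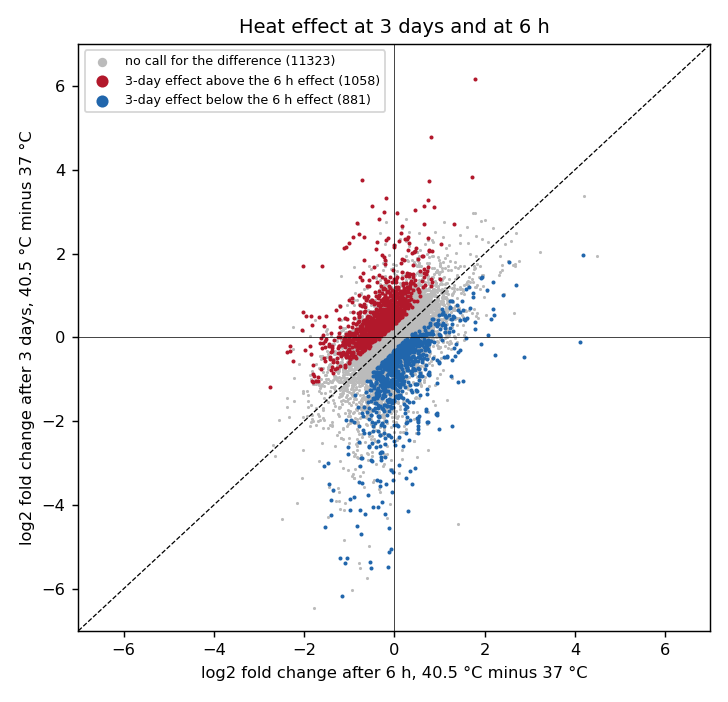
Each point is 1 tested gene, with the log2 fold change of 6 h of heat on the x axis and of 3 days of heat on the y axis, each against its own 37 °C control; the dashed line marks equal effects, and colours mark the 1939 genes whose effects differed at an adjusted p of 0.05 in limma. The deepest 3-day falls lie below the line: the 12 largest had log2 changes from -6.46 to -4.83 at 3 days and from -1.79 to -0.07 at 6 h.

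The genes changed by at least 1 after 3 days were followed through the other groups, relative to the 6 h control. In the 519 genes that rose, the median log2 level was 0.53 higher in the 6 h heat group and 1.35 higher in the 3-day heat group. It was -0.07 relative to the 6 h control in the 3-day control and 0.14 in the recovery group. In the 803 genes that fell, the median was -0.44 in the 6 h heat group and -1.05 in the 3-day heat group, but 0.59 in the 3-day control and 0.38 in the recovery group. Both 3-day groups were used to choose these genes, which places their medians on opposite sides by selection. The recovery libraries entered the choice of these genes only through the estimate of the spread, and 220 of the 803 fallen genes (27.4%) were higher there by at least 1 than in the 6 h control and 58 (7.22%) were lower. Of the 519 risen genes, 85 (16.4%) were higher and 26 (5.01%) lower by that much. Of all tested genes, 7.44% were higher and 4.23% lower. Over all tested genes the largest median difference of a group from the 6 h control was 0.0234, in the 3-day heat group.

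The genes that changed also shifted the make-up of the RNA. The 2761 risen genes held 20.1% and 21.2% of the summed normalised value in the 3-day controls and 33.2%, 33.1% and 34.6% in the heated libraries. The 2750 fallen genes held 33.3% and 32.4% in the controls and 20.0%, 20.1% and 18.5% with heat. These shares describe genes chosen in those libraries. The 6 h and recovery libraries entered the choice only through the estimate of the spread. There the risen genes held 20.5%, 21.2% and 21.6% at 37 °C, 26.1%, 26.5% and 26.9% at 40.5 °C, and 21.9% and 22.3% after recovery. The fallen genes held from 31.3% to 33.5% at 37 °C, from 26.5% to 28.5% after 6 h at 40.5 °C, and 30.6% and 30.1% after recovery. The 6 h heat libraries thus lay between the 37 °C and the 3-day heat libraries for both sets, without overlap. The recovery libraries lay close to the 37 °C ones, but outside their range on the side of heat for both sets.

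**Figure D5:**
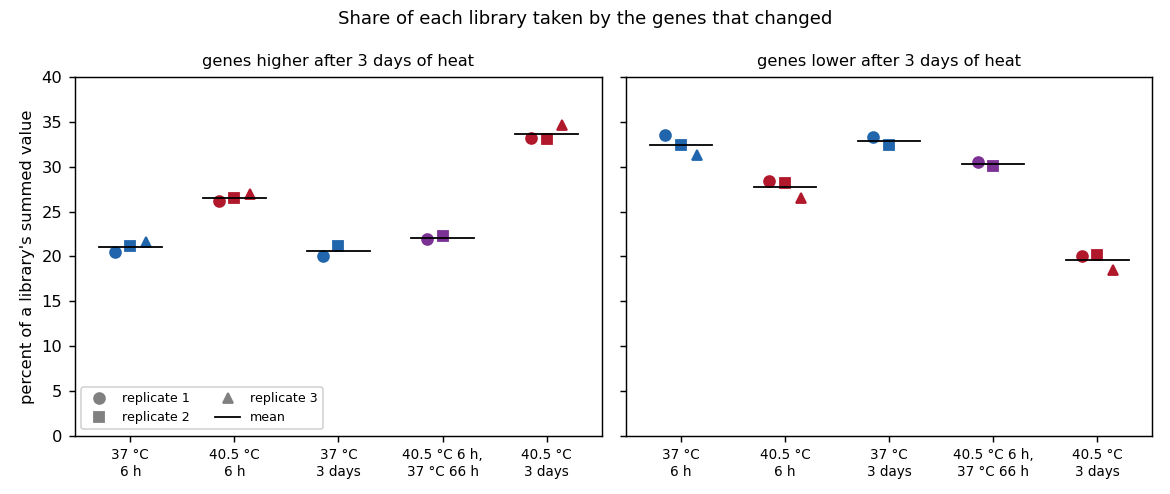
Percent of each library's summed normalised value held by the 2761 genes higher (left) and the 2750 genes lower (right) after 3 days of heat, by group; symbols give the replicate number and bars the mean. The 6 h heat libraries hold from 26.1% to 26.9% in the left panel, between the 37 °C libraries and the 3-day heat libraries.

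The share of the most abundant transcripts depended on how they were chosen. The 10 top genes of each library held 15.2%, 15.1% and 13.7% of the value in the heated libraries and 12.3% and 12.6% in the controls, and the top 100 held from 31.8% to 33.0% against 30.8% and 30.7%. The groups did not overlap for either measure, with heat replicate 3 the lowest heated library in both. On a fixed set, the 10 genes with the highest mean in the control, the groups did overlap. These genes held 14.2%, 14.0% and 11.3% in heat replicates 1 to 3 and 12.3% and 12.6% in the controls, so replicate 3 was below both controls. For 3 libraries against 2, an exact two-sided permutation test, with the smaller tail doubled, gave p = 0.2 for the top 10 and the top 100 of each library. This is the smallest value that this form of the test can give here. Of the 100 genes with the highest mean in the control, 79 were also among the 100 highest in the heated cells. Of the control's 100, 20 rose and 35 fell, and of the 100 highest in the heated cells, 36 rose and 19 fell, where 20.8% of all tested genes rose and 20.7% fell.

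Over the whole series, 1142 of the risen genes were higher in all 3 heated libraries than in any of the 10 other libraries. Of the fallen genes, 1102 were lower. Of all tested genes, 10.6% and 9.53% met those criteria. Among the called genes with a log2 change of at least 1, 314 of 519 rises and 300 of 803 falls met these criteria. The remaining fallen genes overlapped with at least 1 library of another group. Depth did not separate the groups: the heated libraries held from 18594417 to 28269327 reads and the controls 18902973 and 28048240.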

How the data were processed

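Polyadenylated RNA of 13 cultures was sequenced. The deposited table holds 1 normalised signal per gene and library, gene read counts divided by a DESeq size factor per its name. The submitters' processing notes name cutadapt, STAR, HTSeq and DESeq with the build ARS-UCD1.2. Versions, annotation, strand setting and filters are not given in the sources used here. Whole reads were recovered by dividing each library by its smallest value above 0, and 100% of values came out whole within 0.01 reads. Recovered depth over all libraries was from 14859428 to 39117065 reads, in the 5 compared from 18594417 to 28269327.

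Groups came from sample titles. Of 16595 genes, 13262 (79.9%) passed the filter. They were fitted as log2(value + 1) with limma 3.58.1 in R 4.3.3, as 5 group means over 13 libraries (8 residual degrees of freedom, 7 without heat replicate 3), with a mean-variance trend and Benjamini-Hochberg adjustment over all tested genes. Tests were two-sided, and fold changes understate low genes. Alternatives included edgeR 4.0.16, which called 5524 genes for 3 days of heat, and DESeq2 1.42.0, which called 5649, both on recovered reads. The procedure was tested on simulated reads. The comparison, libraries and naming rule (2 rises and 2 falls as described in the text) were chosen with earlier results of these data known. Gene lists by symbol had been prepared and could not be used.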

Additional observations from a re-analysis of the deposited data

Results flagged for a closer look

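The 3-day and the 6 h response to heat were unequal in 1939 genes when the difference itself was tested, which is why it is listed. Among the identifiers described above, the effect at 3 days minus that at 6 h was 4.37 on the log2 scale for ENSBTAG00000020060, 3.96 for ENSBTAG00000018252 and -5.01 for ENSBTAG00000047894. Each duration had its own control and harvest. No group had 4 or more libraries, so Dixon's test for a single distant library was not applied to any group.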

How the results depend on the processing

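The number of genes changed by 3 days of heat was within 1.5 times of 5511 in 18 of 19 alternatives, and no called gene tested in an alternative changed sign there. It ran from 3369 (without replicate 1 of the 3-day control) to 4810 when single libraries were left out. The number with a log2 change of 1 or more ran from 988 to 1297 in those fits and kept within 1.5 times of 1322 in every alternative. The number of genes whose effect differed between 3 days and 6 h ran from 769 (without replicate 1 of the 3-day control) to 2404 when single libraries were left out, with 1251 without replicate 1 of the 6 h heat group. It was 4243 with array quality weights and 4514 with replicates 1 and 2 only. The cause was not tested. With the replicate number as a block, the counts were 7014 for 3 days of heat and 3918 for the difference. Same-numbered libraries of the 3-day groups did not deviate together (r = 0.05 and 0.00 across genes). The deviations of 2 controls mirror each other, and the distant heat replicate 3 weighs in those of its group. These r values therefore cannot show whether the numbers pair the libraries. Among the groups with 3 replicates, same-numbered libraries gave r from 0.29 to 0.73. The 4 identifiers stayed past the threshold for 3 days of heat in each alternative that gave an adjusted p, the highest being 0.04997 for ENSBTAG00000027513 without replicate 1 of the 3-day control. DESeq2 gave no adjusted p for that gene. With 2 controls, small changes may have gone uncalled.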
